A study of Mus musculus with 6 samples.

Results

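A set of 9 genes of heterochromatin silencing, Setdb1, Trim28, Ehmt1, Ehmt2, Suv39h1, Suv39h2, Atf7ip, Morc2a and Mphosph8, was followed in mouse neural stem cells with and without Smchd1. They were found by matching their Entrez gene IDs to the records of the count tables, which gave 9 of 27179 records, and all 9 passed the filter on low counts that left 14207 genes to test. SMCHD1 is a chromatin protein with a hinge domain like that of SMC proteins, and it helps to keep the inactive X chromosome and some imprinted and clustered genes silent. The cells came from brains of male E14.5 embryos whose strain is given as C57BL/6 x FVB/N. Growth medium for all 6 contained 20 ng/ml EGF and 20 ng/ml bFGF. RNA was sequenced from 3 libraries labelled Smchd1 wild-type and 3 labelled Smchd1 null, which carried MommeD1 on both alleles. MommeD1 is an allele that arose in a screen for modifiers of epigenetic gene silencing, and alleles of Trim28 and Setdb1 came from the same screening effort. The labels do not say whether replicates came from separate embryos or derivations, so the p-values cover only the spread among these libraries, part or all of which may be technical.

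Methylation of lysine 9 on histone H3 (H3K9) marks silent chromatin, and it is written by several enzymes that work in different places. SETDB1 is brought to retroviral elements and imprinted regions by TRIM28 (also called KAP1), which binds KRAB zinc finger proteins on DNA, and ATF7IP keeps SETDB1 in the nucleus. EHMT2 (G9a) and EHMT1 (GLP) form a complex that places mono- and dimethylation in euchromatin, while SUV39H1 and SUV39H2 trimethylate pericentromeric repeats. MPHOSPH8 is the H3K9me3 reader of the HUSH complex, and MORC2A is an ATPase that HUSH uses to compact chromatin. In neural progenitors TRIM28 and SETDB1 are known for holding down endogenous retroviruses. SMCHD1 shares a GHKL-type ATPase domain with the MORC proteins.

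The sequence just before the annotated start is shown for 4 members, since these windows hold different motif matches and none runs into the annotated body of its own gene. Windows of 250 bases from RefSeq (GRCm38.p6) were available for 9 of 9 members, and the first listed window of each was used. Those of Ehmt1, Ehmt2, Atf7ip, Morc2a and Mphosph8 run into the annotated body of the gene. Nearly all of the Morc2a window (chr11:3649187-3649436) lies inside it. The motifs searched, on both strands, were GCGCANGCG, the core bound by NRF1, CCGGAAG, bound by ETS factors, and CCAAT, the CCAAT box. Matches are in capitals, and in the windows printed no match overlapped another.
Setdb1, minus strand of chr3:95357203-95357452: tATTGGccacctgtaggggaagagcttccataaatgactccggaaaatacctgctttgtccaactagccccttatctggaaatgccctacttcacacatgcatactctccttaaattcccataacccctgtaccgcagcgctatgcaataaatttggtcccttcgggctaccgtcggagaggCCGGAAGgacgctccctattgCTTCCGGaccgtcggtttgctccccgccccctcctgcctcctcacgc
Trim28, plus strand of chr7:13023902-13024151: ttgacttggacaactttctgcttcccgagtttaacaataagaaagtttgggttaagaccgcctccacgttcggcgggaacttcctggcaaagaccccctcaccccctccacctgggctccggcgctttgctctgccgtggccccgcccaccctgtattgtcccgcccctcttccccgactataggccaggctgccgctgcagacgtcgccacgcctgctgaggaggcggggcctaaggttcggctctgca
Suv39h1, minus strand of chrX:8074761-8075010: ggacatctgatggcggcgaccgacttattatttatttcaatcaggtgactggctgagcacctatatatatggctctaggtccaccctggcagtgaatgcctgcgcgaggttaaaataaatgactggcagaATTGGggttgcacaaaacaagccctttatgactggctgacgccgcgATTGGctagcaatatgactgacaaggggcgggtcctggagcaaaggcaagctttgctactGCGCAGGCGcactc
Suv39h2, minus strand of chr2:3474987-3475236: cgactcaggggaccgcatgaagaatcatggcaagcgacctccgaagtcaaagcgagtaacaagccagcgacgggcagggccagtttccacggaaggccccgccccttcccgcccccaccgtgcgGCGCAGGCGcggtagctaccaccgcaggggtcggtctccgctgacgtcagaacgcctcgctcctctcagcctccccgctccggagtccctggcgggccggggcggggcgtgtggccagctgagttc
The NRF1 core was found in 3 of 9 members, Ehmt1, Suv39h1 and Suv39h2, and in 1696 (5.16%) of all 32851 windows. Both members of the SUV39H pair hold it. The ETS motif was found only in Setdb1 among the 9 members, where it occurs on each strand, against 6.91% of all windows. A CCAAT box was found in 5 of 9 members (33.8% of all windows), with the Morc2a match inside its annotated gene. The Trim28 window held no match to any of the 3 motifs. GC content of the members' windows ran from 51.6% in Suv39h1 to 69.6%, against a median of 52.4% for all windows, and their ratio of observed to expected CpG had a median of 0.756 against 0.373. A match is a description of the letters in the window and says nothing of binding.

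Total counts ran from 18608881 to 23253367 per library, but 1 library stood apart. In wild type replicate 3 a single record without a symbol, Entrez 100861531, took 44.6% of the counts, against 2.11% to 5.90% elsewhere. The depth of that library after scaling was 10.1 M counts against 21.3 to 25.8 M. Of the pairs of libraries within a group, those without it had a median chi-square per gene of 0.901 to 1.20, and those with it had 3.45 and 3.56. Wild type replicates 1 and 2 also are named NPC_RNA_113 and NPC_RNA_114, while wild type replicate 3 carries the number 14 and the null libraries 11 to 13. The neural stem cell label was matched by its markers, whose 8 genes summed to 5902 to 6179 CPM (counts divided by the scaled depth in M) in wild type and 5828 to 5986 in null. Summed markers of microglia, endothelium and fibroblasts stayed at or under 2.90 CPM in every library. Those of neurons, at 1003 to 1142 CPM, and of the oligodendrocyte lineage, at 1115 to 1597 CPM, were well above this in every library. Smchd1 itself lay at 271, 259.6 and 232 CPM in wild type and at 30.3, 31.1 and 27.9 CPM in null, a log2 fold change of -3.10 ± 0.08 (SE; edgeR adjusted p = 1.09e-06).

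None of the 9 genes differed between null and wild type by the main test. The edgeR quasi-likelihood test, with Benjamini-Hochberg adjustment over 14207 genes, called 0 of 9 members at an adjusted p of 0.05, where 82 genes (0.577% of those tested) were called in all. DESeq2 and limma-voom also called 0 members, where they called 391 of 21078 and 127 of 14207 genes in all. At an unadjusted p under 0.05 edgeR counted 1 member, Morc2a, and 2642 of all genes. Fold changes are log2 values of null minus wild type, so a negative value means less RNA in null. All 9 lay within 0.2 of zero, as did 8905 (62.7%) of the tested genes, and the largest was 0.19 in size. The members' median was -0.03, with 4 above and 5 below zero, against a median of 0.00 over all tested genes. Scaling by total counts alone moved the median of all genes to 0.32 and made all 9 values positive. In bulk RNA of this kind, fewer cells that express a gene and less RNA per cell cannot be told apart.

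**Figure D1:**
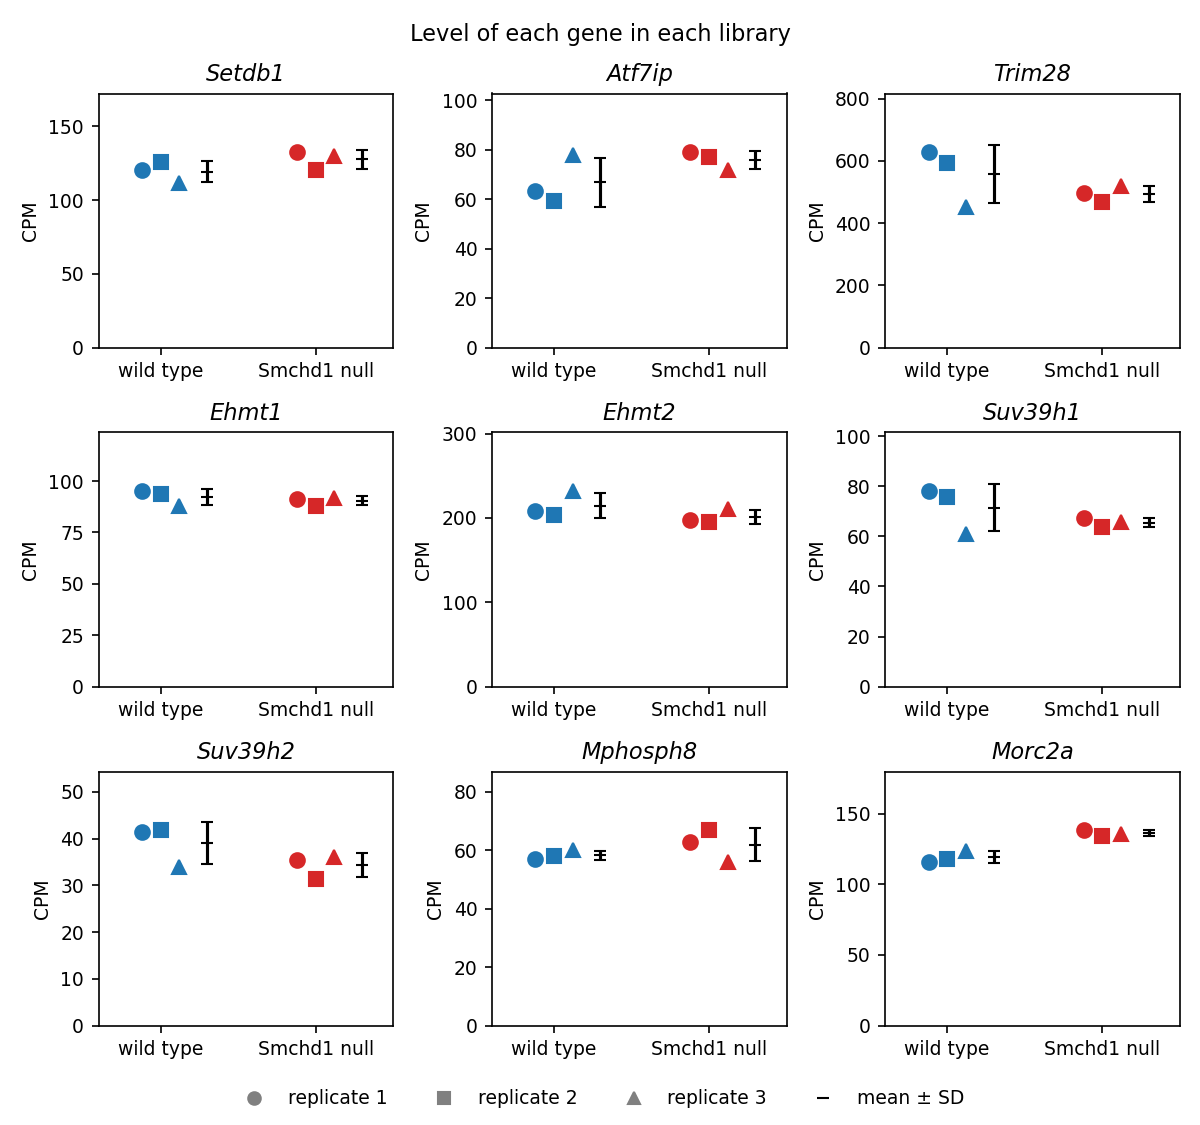
CPM of each of the 9 genes in every library, wild type and Smchd1 null side by side, with the mean and SD of each group (n = 3). Morc2a is the only gene whose null libraries all lie above all wild type libraries, and wild type replicate 3 is the lowest wild type library for Setdb1, Trim28, Ehmt1, Suv39h1 and Suv39h2 and the highest for the other 4.

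Setdb1 (Entrez 84505, chromosome 3, 95323525 to 95357202, mm10), the enzyme that trimethylates H3K9 in the KAP1 pathway, lay at 120.5, 125 and 111 CPM in wild type replicates 1 to 3 and at 132, 120.4 and 130.0 CPM in null replicates 1 to 3. The groups overlapped, since null replicate 2 lay below wild type replicates 1 and 2. Its log2 fold change was 0.10 ± 0.07 (SE; edgeR adjusted p = 0.443), and its 95% interval of -0.06 to 0.26 reached up to a 1.19-fold rise. Of 50-base windows in its transcripts, 10.2% also occur in other annotated transcripts, most of them in Gm4349, a gene at 1.49 to 3.08 CPM. On the opposite strand Gm37500 and Cers2 overlap 4.73% of the GENCODE M21 exon bases of Setdb1, and Cers2 lay at 89.5 to 96.8 CPM. In the RefSeq coordinates Cers2 and Setdb1 share only the stretch from 95323525 to 95323599.

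Atf7ip (Entrez 54343, chromosome 6, 136518789 to 136610850), the partner that stabilises SETDB1, lay at 63.4, 59.2 and 77.9 CPM in wild type and at 79.1, 77.1 and 72.0 CPM in null. Wild type replicate 3 fell inside the null range, and wild type replicates 1 and 2 lay below it. Atf7ip had a log2 fold change of 0.19 ± 0.10 (edgeR adjusted p = 0.333), with an interval of -0.04 to 0.43. Setdb1 and Atf7ip therefore both had positive fold changes that missed the threshold.

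Trim28 (Entrez 21849, chromosome 7, 13024152 to 13031032), the KAP1 corepressor that links KRAB zinc finger proteins to SETDB1, was by far the most abundant member. Its wild type libraries lay at 628, 592 and 453 CPM and its null libraries at 498, 468 and 519 CPM. Wild type replicate 3 was the lowest of all 6 libraries, while wild type replicates 1 and 2 were the highest. For Trim28 the log2 fold change was -0.17 ± 0.12 (edgeR adjusted p = 0.426), and the lower end of its interval, -0.44 to 0.09, corresponds to a 1.36-fold fall. No annotated exon of another gene overlaps Trim28, and none of its 50-base windows is shared.

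The G9a and GLP genes both had small negative fold changes. Ehmt1 (Entrez 77683, chromosome 2, 24790769 to 24919643), which encodes GLP, lay at 95.1, 93.8 and 87.7 CPM in wild type and at 91.5, 88.0 and 91.9 CPM in null. These 6 values span 1.08-fold, the narrowest of the 9 members, and the null libraries lie among the wild type ones. Ehmt1 had a log2 fold change of -0.03 ± 0.06 (edgeR adjusted p = 0.803), with an interval of -0.17 to 0.11 whose lower end is a 1.12-fold fall. Ehmt2 (Entrez 110147, chromosome 17, 34898463 to 34914073), which encodes G9a, lay at 208, 204 and 232 CPM in wild type and at 197, 195 and 211 CPM in null. Here wild type replicate 3 was the highest library, and null replicate 3 lay above wild type replicates 1 and 2. Its log2 fold change was -0.09 ± 0.07 (edgeR adjusted p = 0.478), with an interval of -0.26 to 0.07.

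The SUV39H genes, which encode the enzymes that trimethylate H3K9 in pericentromeric heterochromatin, had similar patterns over the libraries. Suv39h1 (Entrez 20937, chromosome X, 8061171 to 8074760) lay at 78.0, 75.7 and 60.7 CPM in wild type and at 67.2, 63.5 and 65.6 CPM in null. Suv39h2 (Entrez 64707, chromosome 2, 3455815 to 3474986) lay at 41.3, 41.8 and 33.8 CPM in wild type and at 35.5, 31.3 and 36.1 CPM in null. In both, wild type replicates 1 and 2 lay above every null library, and wild type replicate 3 lay at the null level or below it. The log2 fold change was -0.13 ± 0.10 (edgeR adjusted p = 0.452) for Suv39h1. It was -0.19 ± 0.10 (edgeR adjusted p = 0.321) for Suv39h2, with an interval of -0.42 to 0.03. The kit did not mark strand, and 14.6% of the exon bases of Suv39h1 and 9.98% of those of Suv39h2 overlap annotated genes on the opposite strand, so reads from the 2 strands could not be told apart there. For Suv39h2 the overlapping gene Dclre1c lay at 8.22 to 10.7 CPM.

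Morc2a (Entrez 74522, chromosome 11, 3649189 to 3690477), the HUSH-associated ATPase, was the only member whose groups did not overlap. Its wild type libraries lay at 116, 118 and 124 CPM and its null libraries at 138, 135 and 136 CPM, so each null library was above each wild type library. Of all tested genes, 22.0% had groups that did not overlap, and 1 of 9 members is not above that share. Its log2 fold change was 0.19 ± 0.06, with an unadjusted edgeR p of 0.00901 and an adjusted p of 0.174, and the interval of 0.06 to 0.33 covers 1.04-fold to 1.25-fold. In GENCODE M21 the noncoding gene Tug1 overlaps 7.52% of the exon bases of Morc2a on the opposite strand. In the RefSeq coordinates, though, Tug1 (3639785 to 3648814) ends before Morc2a starts, so the 2 genes do not overlap there. The deposited length of Morc2a is 5238 bases, against 6422 exon bases in GENCODE M21. Tug1 averaged 192 ± 5.79 in wild type against 199 ± 7.02 CPM in null (SD, n = 3; log2 fold change 0.05 ± 0.06, edgeR adjusted p = 0.640), and its groups overlapped.

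Mphosph8 (Entrez 75339, chromosome 14, 56668235 to 56697430), the chromodomain reader of HUSH, lay at 57.1, 57.8 and 59.9 CPM in wild type and at 62.9, 66.8 and 55.9 CPM in null. Null replicate 3 was the lowest of the 6 libraries and the other null libraries were the highest. Mphosph8 had a log2 fold change of 0.09 ± 0.08 (edgeR adjusted p = 0.545), with an interval of -0.09 to 0.27. The antisense gene Gm16973, at 2.23 to 4.26 CPM, covers 10.7% of its exon bases.

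**Figure D2:**
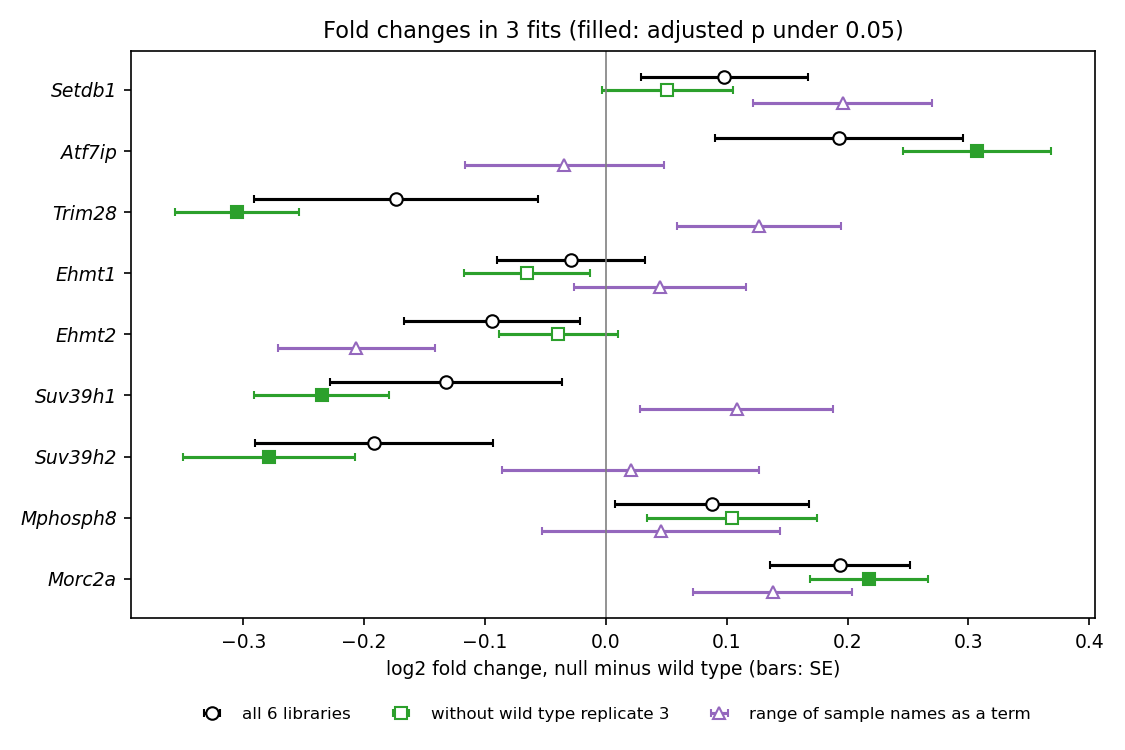
Log2 fold change (null minus wild type) of the 9 genes with bars of 1 SE and filled points for an adjusted p under 0.05, from all 6 libraries, without wild type replicate 3, and with the range of sample-name numbers as a term. With all libraries every value lies within 0.2 of zero, and with the sample-name term Trim28, Ehmt1, Suv39h1, Suv39h2 and Atf7ip lie on the other side of zero.

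Levels of the members lay close together across the 6 libraries. The ratio of the highest to the lowest CPM had a median of 1.19 over the 9 members, against 1.34 over all tested genes, and ran from 1.08 for Ehmt1 to 1.39 for Trim28. The tested genes were not matched to the members for level. Per length the members lay above 51.7% (Suv39h2) to 97.8% (Trim28) of them, so the 2 medians do not set the members apart. The members' counts ran from 341 to 16207 per library, which gives a counting SD of 5.42% to 0.786%. This covers counting error only, and that error may be larger, since repeated reads of 1 molecule were not marked.

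The calls on these genes depended on wild type replicate 3. Without that library edgeR called 5 of 9 members, against 39.2% of all genes tested in that fit (5676 of 14494). Trim28 then had a log2 fold change of -0.30 ± 0.05 (edgeR adjusted p = 0.000202), Suv39h1 -0.24 ± 0.06 (adjusted p = 0.00335) and Suv39h2 -0.28 ± 0.07 (adjusted p = 0.00533). Atf7ip stood at 0.31 ± 0.06 (adjusted p = 0.000876) and Morc2a at 0.22 ± 0.05 (adjusted p = 0.00215). In that fit genotype and the range of sample-name numbers cannot be told apart, because both wild type libraries left are numbered above 100 and all null libraries below. Setdb1, Ehmt1, Ehmt2 and Mphosph8 were not called without it either, with adjusted p-values of 0.477, 0.334, 0.550 and 0.255.

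A fit with the range of sample-name numbers as a term called 0 of 9 members, against 1.31% of all genes tested (186 of 14207). Only wild type replicate 3 shares the number range of the null libraries, so this fit depends on it. The log2 fold change of Trim28 was then 0.13 ± 0.07 (edgeR adjusted p = 0.446), that of Suv39h1 0.11 ± 0.08 (adjusted p = 0.609), that of Suv39h2 0.02 ± 0.11 (adjusted p = 0.958) and that of Atf7ip -0.03 ± 0.08 (adjusted p = 0.903). Morc2a kept a positive value of 0.14 ± 0.07 (adjusted p = 0.384), and Setdb1 had 0.20 ± 0.07 (adjusted p = 0.257). Ehmt2 stood at -0.21 ± 0.06 (adjusted p = 0.161), against -0.09 without the term.

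Wild type replicate 3 lay nearer to the null mean than to the mean of the other wild type libraries for 6 of 9 members (66.7%), and for 69.2% of all tested genes. For Trim28 it was 0.43 below the other wild type libraries and 0.13 below the null mean on the log2 scale (-0.43 and -0.13), and for Atf7ip it was 0.34 above the former and 0.03 above the latter. Oligodendrocyte lineage and astrocyte markers were also higher in wild type replicate 3 than in the other wild type libraries. The 8 oligodendrocyte lineage markers summed to 1212 and 1115 CPM in wild type replicates 1 and 2, 1597 CPM in wild type replicate 3 and 1423 to 1504 CPM in null, and 7 of 8 were higher in wild type replicate 3 than in both other wild type libraries. The 5 astrocyte markers summed to 37.1 and 53.2 CPM in wild type replicates 1 and 2, 106 CPM in replicate 3 and 76.2 to 81.0 CPM in null. The 6 neuron markers summed to 1142, 1125 and 1090 in wild type replicates 1 to 3 against 1003 to 1031 CPM in null, so there wild type replicate 3 lay outside the null range, and 3 of 6 were above both other wild type libraries. The part of these markers in the members' values was not tested.

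Per length of transcript the members spanned a wide range of levels. The mean over the 6 libraries, in CPM per kb of the deposited gene length, was 162 ± 21.5 (SD) for Trim28, which was above 97.8% of the tested genes. Ehmt2 followed at 51.1 ± 3.27, Setdb1 at 26.5 ± 1.64, Morc2a at 24.4 ± 1.87 and Suv39h1 at 22.0 ± 2.21 CPM per kb. Mphosph8 stood at 20.4 ± 1.40, Ehmt1 at 18.1 ± 0.592, Atf7ip at 15.8 ± 1.84 and Suv39h2 at 8.56 ± 0.968 CPM per kb, the last above 51.7% of tested genes. Ranges over the libraries did not overlap between Trim28 and Ehmt2, Ehmt2 and Setdb1, Mphosph8 and Ehmt1, or Atf7ip and Suv39h2. They overlapped between Setdb1 and Morc2a, Morc2a and Suv39h1, Suv39h1 and Mphosph8, and Ehmt1 and Atf7ip. Within libraries Setdb1 lay above Morc2a in 6 of 6 and Ehmt1 above Atf7ip in 6 of 6, while Morc2a lay above Suv39h1 in 4 of 6 and Suv39h1 above Mphosph8 in 4 of 6.

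**Figure D3:**
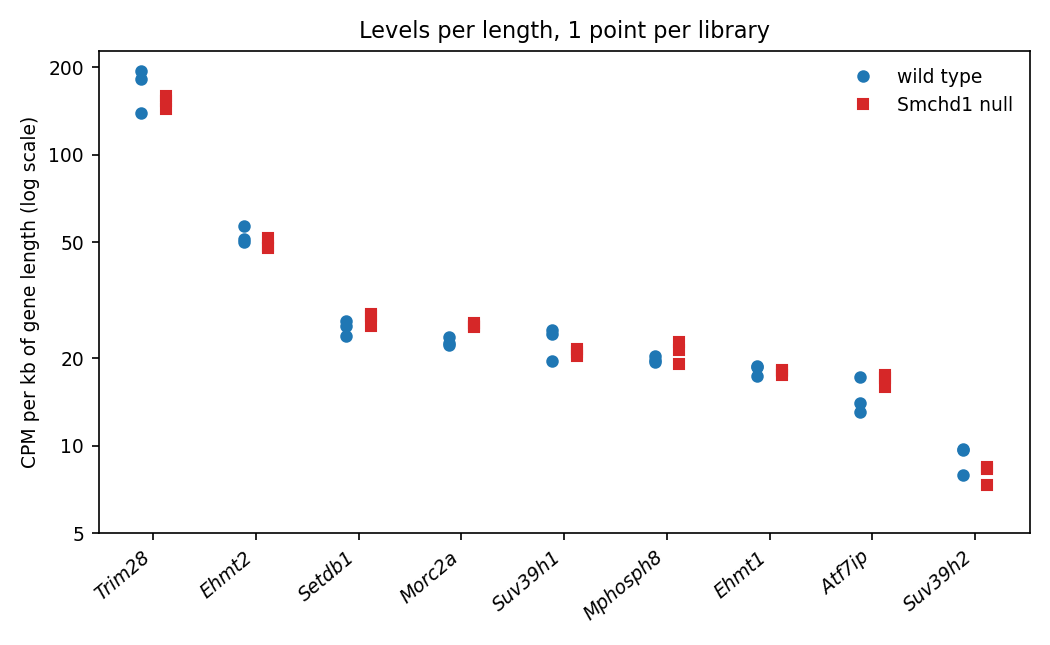
Level per length (CPM per kb, log axis) of the 9 genes in each library, in order of their mean over the 6 libraries. Trim28 at 162 CPM per kb lies well above Ehmt2 at 51.1, and Suv39h2 at 8.56 is the lowest.

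Genes whose products act together were also compared as ratios of their levels per length within each library, for 5 pairs. With 3 libraries against 3, the smallest p that the two-sided exact permutation test can give is 0.1, so no pair could pass 0.05. The ratio of Trim28 to Setdb1, the corepressor to its methyltransferase, was 7.49, 6.78 and 5.85 in wild type and 5.40, 5.59 and 5.74 in null. It was the only one of the 5 whose groups did not overlap, with a mean of 6.71 ± 0.827 in wild type and 5.57 ± 0.167 in null (SD, n = 3; exact permutation p = 0.1, 0.5 when adjusted over the 5 pairs). Its log2 difference of -0.26 lay between -0.36 and -0.18 when each library was left out in turn. Each of those comparisons kept wild type replicate 1 or 2, and wild type replicate 3, at 5.85, was the wild type library nearest to null. With the range of sample-name numbers as a term, Trim28 and Setdb1 both had positive log2 fold changes, 0.13 and 0.20.

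The other 4 ratios overlapped between the groups. Setdb1 to Atf7ip was 1.76 ± 0.342 in wild type and 1.63 ± 0.118 in null (SD, n = 3; exact permutation p = 0.6). G9a to GLP, Ehmt2 to Ehmt1, was 2.90 ± 0.331 and 2.76 ± 0.0845 (exact permutation p = 0.8). Suv39h1 to Suv39h2 was 2.52 ± 0.0688 and 2.63 ± 0.145 (exact permutation p = 0.2). Mphosph8 to Morc2a was 0.872 ± 0.00762 and 0.810 ± 0.0751 (exact permutation p = 0.4). Adjusted over the 5 pairs these p-values were 0.75, 0.8, 0.5 and 0.667.

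**Figure D4:**
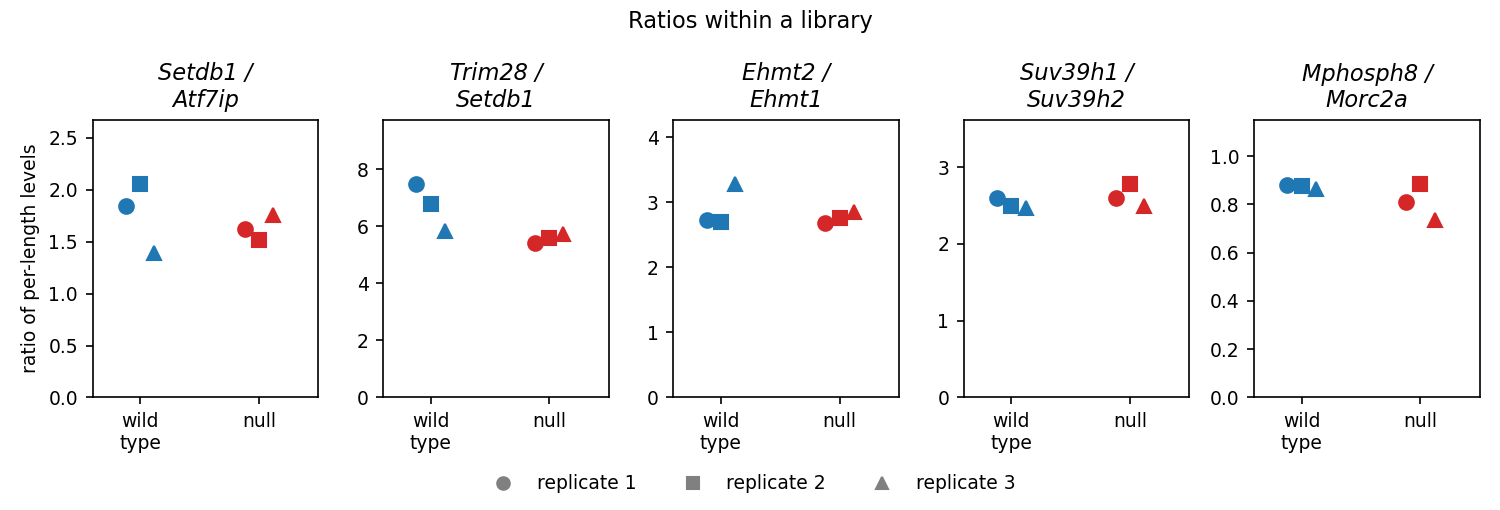
Ratio of levels per length within each library for the 5 pairs of genes, with 1 point per library and a marker shape per replicate number. The 3 null libraries lie below the 3 wild type libraries only for Trim28 to Setdb1.

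The wider pathway was described by 8 lists with 65 genes, of which 51 passed the filter and 14 did not. By the main test 0 of 51 were called, against 0.577% of all tested genes. At an unadjusted edgeR p under 0.05 there were 7 of 51, against 2642 of all 14207, and 12 of 51 (23.5%) had groups that did not overlap, against 22.0% of all tested genes.

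Among the partners of SETDB1, HUSH and MORC, 4 of 6 tested genes had positive fold changes, with a median of 0.08. Tasor, the scaffold of HUSH, lay at 68.6, 71.3 and 72.8 CPM in wild type and at 81.6, 81.6 and 73.6 CPM in null, a log2 fold change of 0.15 ± 0.07 (edgeR adjusted p = 0.269). Its paralog Tasor2 had 0.12 ± 0.06 (adjusted p = 0.311). The null libraries of both lay above their wild type libraries, as for Morc2a, while 22.0% of all tested genes had groups that did not overlap. Without wild type replicate 3 both were called, at 0.17 (adjusted p = 0.0362) and 0.14 (adjusted p = 0.0372), which makes 2 of the 6 tested partners against 39.2% of all genes in that fit.

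Among the 4 partners of G9a and GLP, Cdyl2, a chromodomain protein, lay at 9.42, 10.2 and 10.3 CPM in wild type and at 15.7, 13.4 and 14.1 CPM in null. Each null library was higher than each wild type library, and the log2 fold change of 0.53 ± 0.11 missed the threshold (edgeR adjusted p = 0.0886). Groups that did not overlap were seen in 1 of the 4 partners, against 22.0% of all tested genes. Zfp644, a zinc finger partner of the complex, had -0.10 ± 0.07 (adjusted p = 0.425). Of the 10 readers of H3K9 methylation and HP1 partners, 8 had negative fold changes, with a median of -0.09, but with the sample-name term 5 were negative and the median was 0.02. Lrif1, an HP1-binding protein that also interacts with SMCHD1, lay at 8.22, 9.42 and 10.7 CPM in wild type and at 14.8, 15.6 and 14.7 CPM in null. Its log2 fold change of 0.68 ± 0.12 lay just outside the threshold (edgeR adjusted p = 0.0505). Uhrf1, which couples H3K9 methylation to DNA methylation, had -0.25 ± 0.09 (adjusted p = 0.223). DESeq2 called 1 gene in each of these lists, higher in null, while limma-voom called 1 of the readers only. Over all genes DESeq2 called 391 of 21078 and limma-voom 127 of 14207. Without wild type replicate 3, where 39.2% of all genes were called, edgeR called 1 G9a and GLP partner higher, Cdyl2 (0.55, adjusted p = 0.000638), and 1 lower, Zfp644 (-0.15, adjusted p = 0.0196). Among the readers it then called 1 higher, Lrif1 (0.77, adjusted p = 2.53e-05), and 3 lower, with Uhrf1 at -0.33 (adjusted p = 0.000626). Neither Lrif1 (0.49, adjusted p = 0.170) nor Cdyl2 (0.48, adjusted p = 0.197) was called in the edgeR fit with the sample-name term. Adnp, a partner of HP1 and CHD4, was called lower with the sample-name term, at -0.38 (edgeR adjusted p = 0.0274). That fit called 1.31% of all genes. In wild type replicate 3, on which that fit depends, Adnp lay at 154.9 CPM, against 109.5 to 128.5 CPM in the other libraries. By the main test Adnp had -0.11 (edgeR adjusted p = 0.630). It had 0.04 (edgeR adjusted p = 0.631) without wild type replicate 3.

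Of the 9 genes of the KAP1 family and its cofactors, 5 had negative fold changes and the median was -0.11, which became 0.03 with the sample-name term. Trim33, a relative of Trim28, had -0.14 ± 0.07 (edgeR adjusted p = 0.283) and the nucleosome remodeler Chd3 had 0.24 ± 0.11 (adjusted p = 0.278). Without wild type replicate 3, 5 of the 9 were called lower and 1 higher, where 39.2% of all genes were called. Among 6 tested KRAB zinc finger genes with described targets the median was 0.19. Zfp57, which maintains imprints through TRIM28, lay at 9.92, 13.2 and 12.9 CPM in wild type and at 16.3, 18.4 and 14.4 CPM in null, with a log2 fold change of 0.45 ± 0.14 (adjusted p = 0.189). Zfp932 had 0.60 ± 0.18 (adjusted p = 0.179). In both, all null libraries lay above all wild type libraries, while 22.0% of all tested genes had groups that did not overlap. Without wild type replicate 3 the KRAB list had 2 of 6 genes called higher, Zfp57 and Zfp932, and 1 lower, against the same 39.2%.

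H3K9 demethylases were split evenly, with 5 of 10 tested genes on each side of zero. Kdm7a had -0.26 ± 0.09 (edgeR adjusted p = 0.214) and Kdm3a -0.20 ± 0.08 (adjusted p = 0.256). Without wild type replicate 3, 1 of the 10 was called, Kdm7a at -0.33 (adjusted p = 0.00173), against 39.2% of all genes. Of the 4 other H3K9 methyltransferase genes 2 were tested, Prdm2 at 0.03 ± 0.07 (adjusted p = 0.834) and Setdb2 at -0.03 ± 0.16 (adjusted p = 0.938). Germline genes that G9a, GLP or SETDB1 keep silent in somatic cells were mostly too low to test, with 4 of 12 passing the filter. Among those 4, Sycp3, a protein of the meiotic chromosome axis, lay at 2.43 to 2.78 in wild type against 3.01 to 3.42 CPM in null, with a log2 fold change of 0.28 ± 0.17 (adjusted p = 0.388). Sycp1 had 0.75 ± 0.42 (adjusted p = 0.351). Of the 4, 1 had groups that did not overlap, against 22.0% of all tested genes. DESeq2 fitted 10 of the 12 germline genes, with 5 above and 5 below zero and a median of -0.12.

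**Figure D5:**
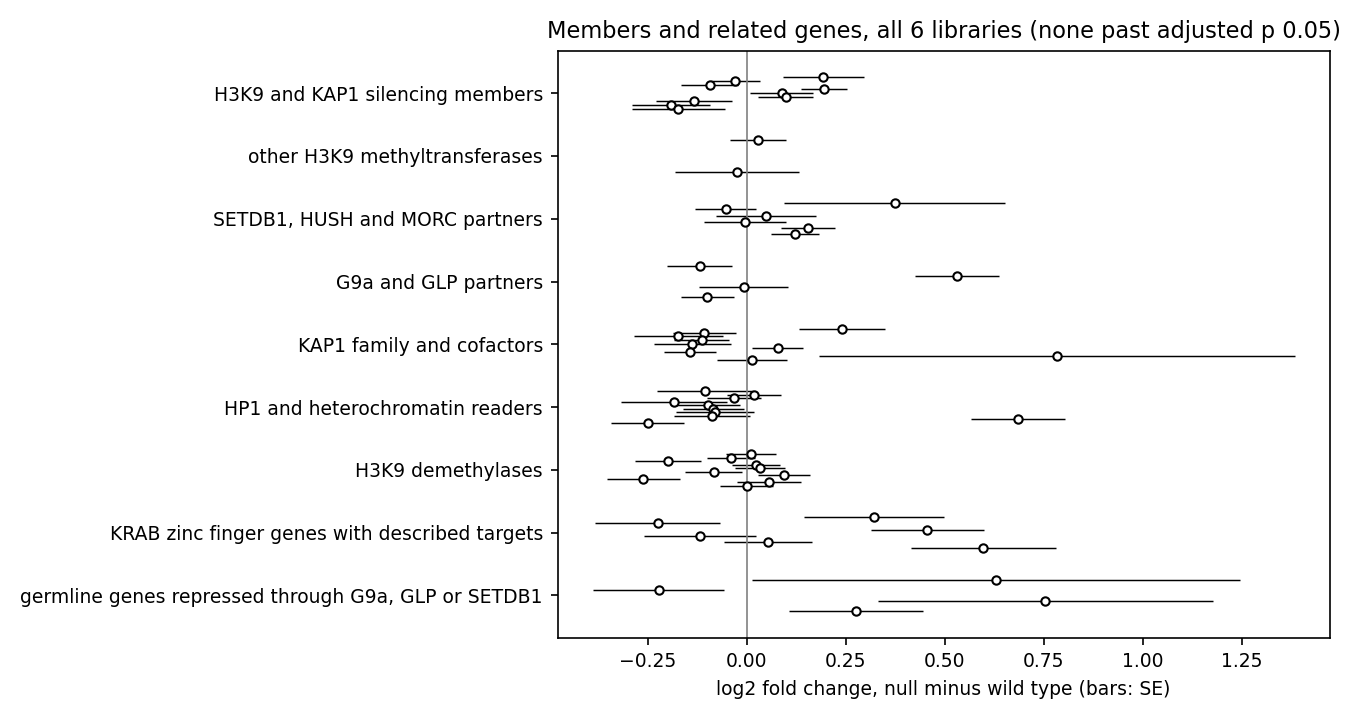
Log2 fold change (null minus wild type) of each tested gene in the 9-gene set and in the 8 pathway lists, 1 point per gene with bars of 1 SE. No gene shown passed the adjusted p of 0.05, and Lrif1 at 0.68 and Cdyl2 at 0.53 had the smallest adjusted p-values among the pathway genes.

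The genes most like Setdb1 and Trim28 over the 6 libraries were found by the root mean square difference of log2 CPM, each gene centred on its own mean. For Setdb1, whose own deviation was 0.0821, these were Wdr4 (0.0201), Sart3 (0.0208) and Zdhhc6 (0.0208). For Trim28, with a deviation of 0.171, they were Ets2 (0.0219), Usp37 (0.0227) and Tpm3 (0.0252). Likeness over 6 libraries from 2 groups also reflects the depth and composition the libraries share.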

How the data were processed

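Each of the 6 deposited tables gives 1 library's raw counts per Entrez gene, with a gene length. Libraries were made from 1 µg total RNA with a TruSeq RNA v2 kit, which does not mark strand, per the labels' protocols. Per the submitters' processing notes, the authors worked with featureCounts, CASAVA 1.8.2, limma 3.22.0 and edgeR 3.8.2 on build mm10. No aligner or handling of multi-mapped reads is named: not given in the sources used here. Symbols and coordinates came from RefSeq (GRCm38.p6), which matched 25275 of 27179 records (93.0%).

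The count test was edgeR 4.0.16, run in R 4.3.3 (filterByExpr, TMM scaling, robust quasi-likelihood F-test, genotype as the only term), with Benjamini-Hochberg adjustment over 14207 genes and a threshold of 0.05. The SE was the size of the fold change over the root of its F, and the 95% interval from its degrees of freedom. The script was tested on simulated data. Ratios within libraries used counts plus 0.5 and exact permutation. Exon overlaps and shared 50-base windows used GENCODE M21.

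The members, the 8 pathway lists and the 7 cell type marker lists were chosen with earlier results of these data known. Named genes were the members, Smchd1, the 2 pathway genes of each list with the smallest p and any called, and the 3 genes most like Setdb1 and Trim28; Adnp and the genes overlapping members were added after their values were seen. The NRF1 motif was first searched with 10 letters and shortened to 9 after those counts were seen, so that it could be spelled out: the longer form was in 3 of 9 members and 3.74% of all windows.

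Same-numbered wild type and null libraries had correlations of deviations of 0.00115, 0.0182 and -0.0555, and differently numbered ones ran from -0.0824 to 0.0788. These values show no sign of pairing by replicate number. With 3 libraries per group, and wild type replicate 3 standing apart, they cannot exclude it. Alternatives were DESeq2 1.42.0, limma-voom 3.58.1 with and without quality weights, other scalings and filters, a replicate block, the sample-name term and leaving out each library.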

Additional observations from a re-analysis of the deposited data

How the results depend on the processing

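The 82 genes called became 391 with DESeq2, 127 with limma-voom, 5168 with limma-voom and sample quality weights, 457 with scaling by total counts only, 222 with no filter, 28 with at least 1 CPM in every library, 186 with the sample-name term and 376 with the libraries named 11 to 14 only. Leaving out each library gave 30 to 5676 genes, and 0 to 5 members, where 5 were called without wild type replicate 3. Sample quality weights also called 5 members (2 higher, 3 lower), in a fit that called 5168 of all 14207 tested genes. The share of called genes that were higher in null was 87.8%, against 45.5% with DESeq2, 52.2% with quality weights, 73.4% with no filter, 99.3% with total counts only, 41.4% with the sample-name term and 33.5% with the libraries named 11 to 14. Total counts only moved the median of all genes to 0.32, and turned Trim28 to 0.0866, Ehmt1 to 0.27, Ehmt2 to 0.25, Suv39h1 to 0.14 and Suv39h2 to 0.0913, all below that median. The sample-name term turned Trim28 to 0.13, Ehmt1 to 0.0448, Suv39h1 to 0.11, Suv39h2 to 0.0204 and Atf7ip to -0.0343, and the libraries named 11 to 14 gave 0.13, 0.0436, 0.11, 0.0192 and -0.0356. Both fits rest on wild type replicate 3: among the libraries named 11 to 14 it is the only wild type library and is assumed to vary like the null ones, so the second is no separate check of the first. Leaving out each library, the log2 ratio difference of Setdb1 to Atf7ip ran from -0.26 to 0.0256 (without wild type replicate 2), and that of Ehmt2 to Ehmt1 from -0.12 to 0.0253 (without wild type replicate 3). The cause of these changes was not tested. Setdb1, Morc2a and Mphosph8 kept their direction in all 18 alternatives. With the replicate number as a block, 54 genes and 0 members were called, and the labels give same-numbered samples no link beyond that number. Wild type replicate 3, at 10.1 M scaled counts, limits what can be said of the members.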
